A study of Sus scrofa with 5 samples.

Results

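miR-320 and both arms of miR-423 were followed through the exosomal small RNA of 5 porcine body fluids. The members are the 3 names ssc-miR-320, ssc-miR-423-5p and ssc-miR-423-3p, of 411 mature miRNA names listed (the prefix ssc- is left out below where a name recurs). They were picked for their large plasma shares in these same libraries, so their plasma levels are a description and carry no test. All 3 were listed above 0 in every fluid.

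Exosomes, the small vesicles that cells release, were isolated from plasma, serum, semen, urine and bile of Rongchang pigs at postnatal day 180, with 1 library per fluid. No treatment or genotype distinguishes the groups. The sources used here do not state how many animals stand behind each library or whether they were pooled. Fewer vesicles with a miRNA and fewer copies per vesicle cannot be told apart in such libraries.

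miRNAs are short RNAs that guide Argonaute proteins to messenger RNAs and lower their output. Most are cut from a hairpin by Drosha and then by Dicer into a duplex of a 5p and a 3p arm, and usually 1 arm is kept in Argonaute while the other is degraded. miR-423 follows this course and both of its arms are found in cells. In human plasma miR-423-5p is known as a circulating marker studied in heart failure. miR-320 is unusual: in mouse its short precursor carries a methylguanosine cap, is not cut by Drosha and gives a mature miRNA from the 3p side only. Each has a single gene in the RefSeq gene table, which is of the build Sscrofa11.1 and was used for names and neighbours alone. MIR423 lies within NSRP1, which encodes a splicing regulator of nuclear speckles. MIR320 overlaps POLR3D, which encodes a subunit of RNA polymerase III, and its nearest coding neighbours are PHYHIP and PIWIL2. No other miRNA gene lies within 10 kb of either in that table.

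The libraries held 26522 miRNA counts in urine and between 473168 and 2284926 in the other 4 fluids, and 84 to 180 names above 0. The smallest count listed above 0 was 10 in each library, so a listed 0 can hide a few reads. All intervals below are 95% intervals for counting error only, since no molecular identifiers are named and no fluid was sequenced in replicate. Differences between fluids are therefore differences between libraries, without a replicate check and without p-values. Shares depend on what else a library holds, so 3 other scalings were set beside them: the authors' RPM, which count against all reads of the library, and TMM and DESeq2 size factors, which assume that most miRNAs are level between libraries. Per listed miRNA counts, names known from erythrocytes took 0.876% in plasma, 14.2% in serum, 0.175% in semen, 1.30% in urine and 0.793% in bile, with 7 of 7 above 0 in plasma. Leukocyte names took 0.386% in plasma and 2.39% in serum, with 8 of 10 listed arms above 0 in each. Platelet names took 0.715% in plasma and 5.53% in serum, with 6 of 6 above 0 in each. miR-223, which belongs to both lists, was not among the names listed. These contrasts depend on the scaling. Of 119 miRNAs with at least 100 counts in plasma or serum, 73.1% were at least 2-fold lower in plasma by share. With TMM 28.6% were. By share 5 of 6 erythrocyte, 8 of 8 leukocyte and 4 of 5 platelet names were lower, and with TMM 3, 2 and 1. With TMM 2, 3 and 1 were at least 2-fold higher, where 43.7% of the 119 were. In the other fluids platelet names took 9.28% in semen, 5.18% in urine and 9.42% in bile, mostly through miR-21, which many cells hold. Hepatocyte names took 3.11% in plasma, 19.8% in serum, 52.99% in semen, 18.0% in urine and 51.3% in bile. This list does not single out bile, since miR-148a-3p makes up most of it in semen, and miR-885-3p was at 0 in all fluids. Names of kidney epithelium were highest in urine, with 35.5%, mostly from miR-30a-5p with 22.1% and miR-10b with 12.0%. Both were also counted in every other fluid, with miR-10b at 4.98% in semen and miR-30a-5p at 1.94% in bile. miR-204 took 0.471% in urine, from 125 counts. Names of the male germ line and tract were highest in semen, with 0.298%. Most of this semen share was miR-135, with 6200 counts, which also had 370 in bile. miR-34c, a germ cell miRNA, had 604 counts in semen and miR-202-5p 11, and both were at 0 elsewhere. The part of these cell sources in the results below was not tested.

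The 3 miRNAs together took 42.7% of all miRNA counts in plasma (42.6 to 42.8), against 2.77% in serum (2.73 to 2.82), 0.258% in semen (0.252 to 0.265), 0.181% in bile (0.174 to 0.187) and 0.189% in urine (0.140 to 0.248). Nearly all of the plasma sum came from miR-320 and miR-423-5p, and miR-423-3p contributed little to it. Set against the library totals that the authors' RPM values imply, the 3 miRNAs were 6.83% of the reads in plasma, 0.124% in serum, 0.0546% in semen and 0.0286% in bile.

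**Figure D1:**
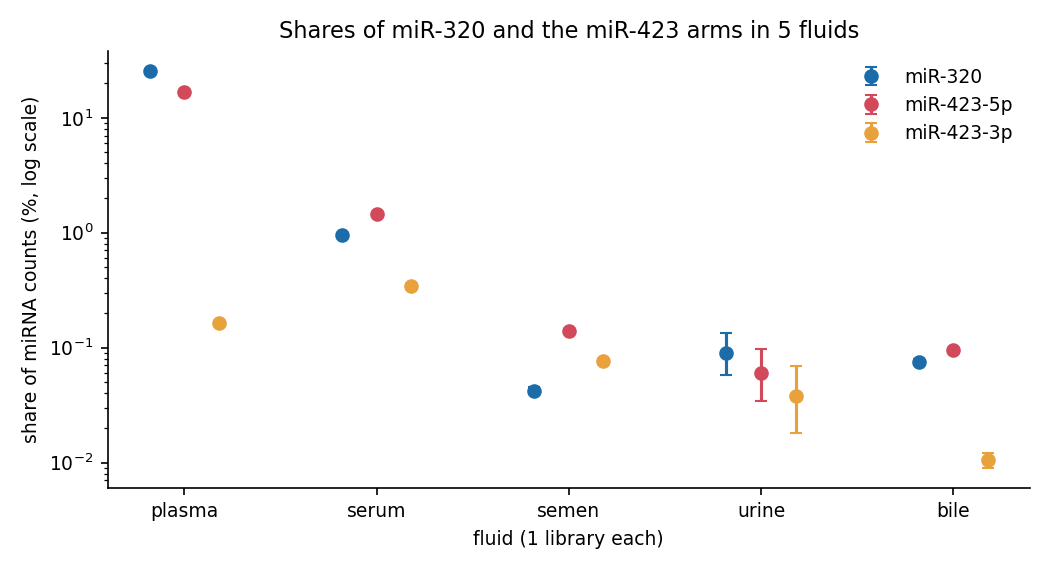
Share of each library's miRNA counts (percent, log scale) taken by miR-320, miR-423-5p and miR-423-3p in 5 fluids, 1 library each; bars are exact 95% counting intervals, often smaller than the point. miR-320 and miR-423-5p stand highest in plasma, at 25.6% and 16.9%, while miR-423-3p is at 0.163% in plasma and 0.343% in serum, an order that turns round on the authors' RPM and with TMM or DESeq2 size factors.

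ssc-miR-320 had 295768 counts in plasma, 4549 in serum, 966 in semen, 24 in urine and 1261 in bile. As shares of miRNA counts these were 25.6% in plasma (25.6 to 25.7), 0.961% in serum (0.934 to 0.990), 0.0423% in semen (0.0397 to 0.0450), 0.0754% in bile (0.0713 to 0.0796) and 0.0905% in urine (0.0580 to 0.135). Plasma stood far above the rest, serum came next, and semen, urine and bile all lay under 0.1%. miR-320 was the second most abundant miRNA of plasma, between miR-378 with 477625 counts and miR-423-5p. It ranked 22nd in serum, 54th in semen, 57th in urine, level with let-7e, and 48th in bile. Its CPM, the count after the miRNA sum of a library is set to 1000000, in plasma was 26.7 times that in serum (25.9 to 27.5), 606 times semen (569 to 647), 340 times bile (322 to 360) and 283 times urine (190 to 442). These sizes hold for CPM: on the authors' RPM plasma was 95.6 times serum, 459 times semen, 343 times bile and 18460 times urine. Among the fluids that did not decide the choice of members, serum held 22.7 times the CPM of semen (21.2 to 24.4) and 12.8 times that of bile (12.0 to 13.6), against 4.802 and 3.59 times on RPM. Urine and bile did not differ beyond counting error by CPM, at a ratio of 1.20 (0.766 to 1.79), but the ratio was 0.0186 on RPM. Plasma and then serum led under every scaling tried, but the order of the other 3 fluids changed: bile stood above urine with TMM and DESeq2 size factors, and urine was lowest on the authors' RPM.

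ssc-miR-423-5p had 194560 counts in plasma, 6946 in serum, 3195 in semen, 16 in urine and 1587 in bile. Its shares were 16.9% in plasma (16.8 to 16.9), 1.47% in serum (1.43 to 1.503), 0.140% in semen (0.135 to 0.145), 0.0948% in bile (0.0902 to 0.0996) and 0.0603% in urine (0.0345 to 0.0979). The order was again plasma and then serum, but here semen came next, ahead of bile and urine, under every scaling tried. The arm ranked 3rd in plasma, where the next name below it, miR-296-3p, had 34789 counts. It ranked 17th in serum, beside miR-486 and miR-378, 30th in semen, 67th in urine and 43rd in bile. Its plasma CPM was 11.5 times that in serum (11.2 to 11.8), 121 times semen (116 to 125), 178 times bile (169 to 187) and 280 times urine (172 to 489). On the authors' RPM these came to 41.2 times serum, 91.3 times semen, 180 times bile and 18215 times urine. Serum held 10.5 times the CPM of semen (10.1 to 10.95), or 2.22 times on RPM, and semen 1.47 times that of bile (1.39 to 1.57), or 1.97 times on RPM. Urine and bile were not separated by CPM, at a ratio of 0.636 (0.363 to 1.04), but urine was lower on other scalings, with a log2 ratio of -1.77 with TMM and a ratio of 0.00986 on RPM.

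ssc-miR-423-3p, the other product of the same hairpin, had 1879 counts in plasma, 1622 in serum, 1740 in semen, 10 in urine and 175 in bile. Its shares were 0.163% in plasma (0.156 to 0.170), 0.343% in serum (0.326 to 0.360), 0.0762% in semen (0.0726 to 0.0798), 0.0105% in bile (0.00897 to 0.0121) and 0.0377% in urine (0.0181 to 0.0693). Unlike its partner it was higher in serum than in plasma by share, though RPM, TMM and DESeq2 size factors put plasma first. It ranked 25th in plasma, 39th in serum, 38th in semen, 83rd of 84 in urine and 93rd in bile. Its plasma CPM was 0.475 times that in serum (0.444 to 0.508), 2.14 times semen (2.003 to 2.28), 15.6 times bile (13.3 to 18.3) and 4.32 times urine (2.34 to 9.02). The direction against serum depended on the scaling: the authors' RPM were 260.7 in plasma, 153 in serum and 161 in semen, and plasma was 1.70 times serum, 1.62 times semen, 15.7 times bile and 281 times urine on that scale. In urine its 10 counts equal the smallest count listed.

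**Figure D2:**
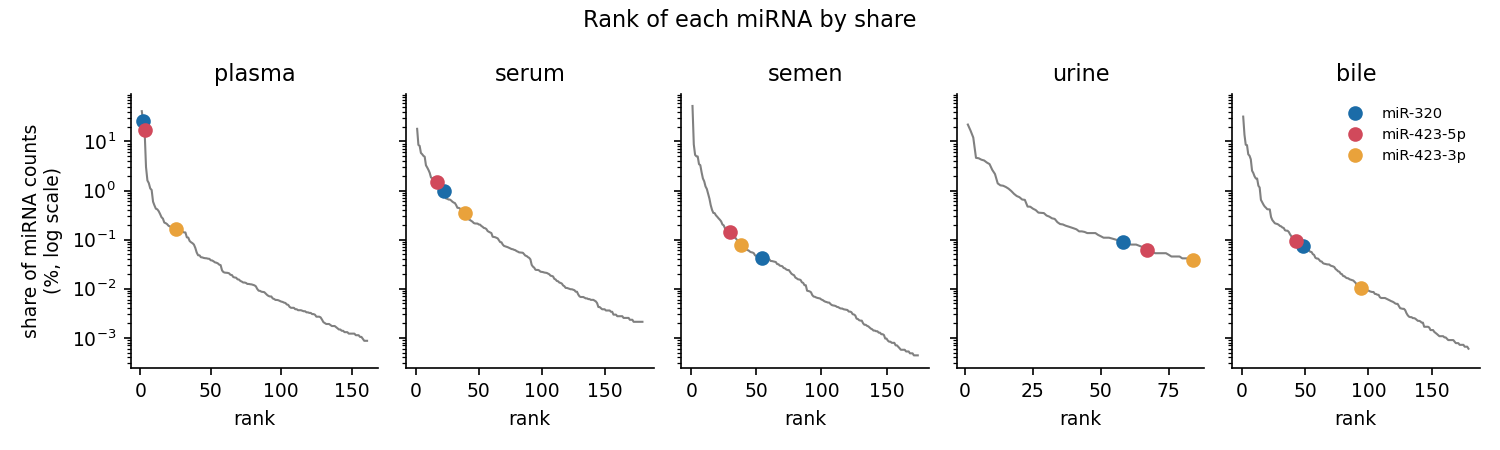
Share of miRNA counts (percent, log scale) against rank for all names above 0 in each of 5 libraries (grey line), with miR-320, miR-423-5p and miR-423-3p marked. In plasma miR-320 and miR-423-5p are 2nd and 3rd and miR-423-3p is 25th; in urine all 3 lie beyond rank 50.

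The plasma library as a whole was dominated by few names, so ratios to it were also read against the other miRNAs. Over 119 miRNAs with at least 100 counts in plasma or serum, the median log2 CPM ratio of plasma over serum was -2.76. Scaling by TMM moved it by 3.30, by DESeq2 size factors by 3.35, and by the authors' RPM by 1.84. Of the 119, 18 (15.1%) were at least 4-fold higher in plasma, among them miR-320 and miR-423-5p, which the choice of members had set. Relative to the median, which no scaling changes, miR-320 was 7.50 higher on the log2 scale, miR-423-5p 6.28 and miR-423-3p 1.69. These ratios ranked 6th, 10th and 34th of 119. Against bile, over 141 miRNAs of which 22.7% were at least 4-fold higher in plasma, the ratios ranked 4th, 10th and 27th. Against semen, with 27.7% of 141 at least 4-fold higher, they ranked 7th, 13th and 46th. Names listed at 0 entered at 10 counts, which caps their ratios, so a rank could be lower at greater depth. Ranks against urine are not given, because all 3 members had under 100 counts there.

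**Figure D3:**
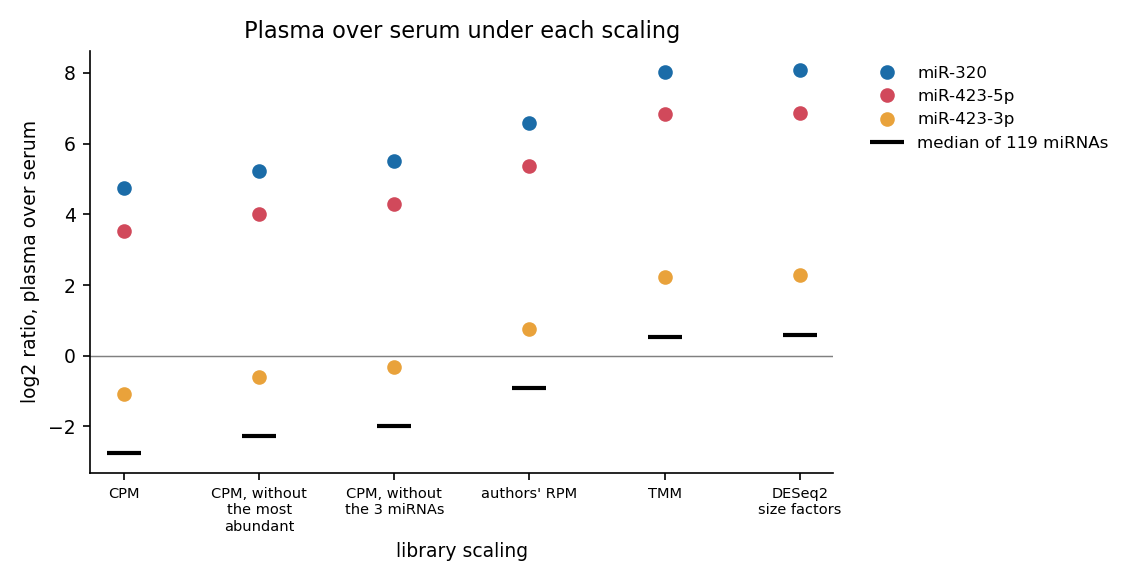
Log2 ratio of plasma over serum for the 3 miRNAs and for the median of 119 miRNAs (black bar) under 6 library scalings. The distance of each point from the bar is the same throughout, while miR-423-3p lies below 0 on the 3 CPM scalings and above 0 on the other 3.

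The split between the miR-423 arms compares molecules of 1 hairpin within 1 library and does not depend on scaling. Of the counts of both arms, the 5p arm took 99.0% in plasma (99.0 to 99.1), against 81.1% in serum (80.2 to 81.9), 64.7% in semen (63.4 to 66.1), 90.1% in bile (88.6 to 91.4) and 61.5% in urine (40.6 to 79.8). The 5p arm thus led in all 5 libraries, though in urine the interval reaches below an even split. There were 104 reads of the 5p arm for each read of the 3p arm in plasma (98.9 to 108), against 4.28 in serum (4.06 to 4.52), 1.84 in semen (1.73 to 1.95), 9.07 in bile (7.75 to 10.7) and 1.60 in urine (0.683 to 3.94). The plasma ratio was 24.2 times that of serum (22.5 to 25.9), 56.4 times semen (52.4 to 60.7), 11.4 times bile (9.70 to 13.4) and 64.7 times urine (29.3 to 143). Because miR-423-5p was chosen for its plasma share, the plasma split is a description. The other 4 splits were not part of that choice: bile, serum and semen had intervals that did not overlap, and the urine interval took in the semen value.

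**Figure D4:**
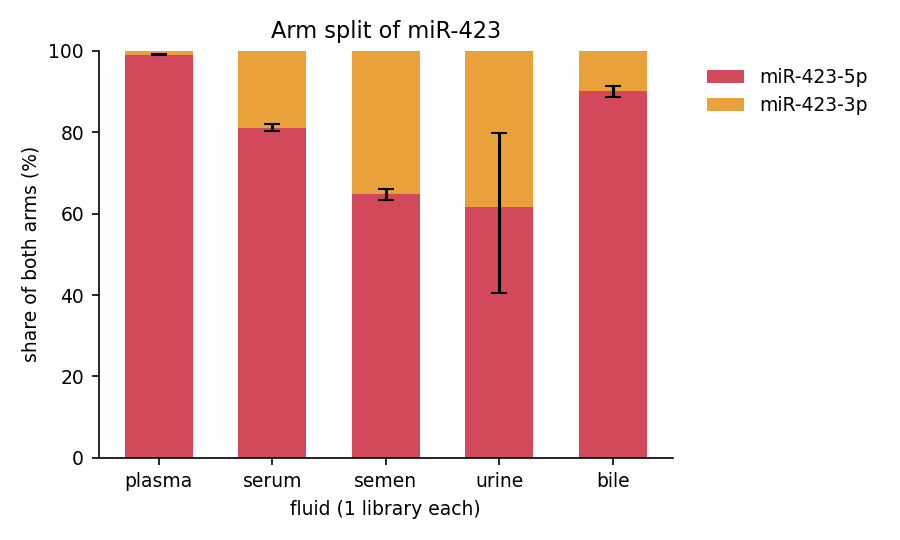
Share of miR-423-5p and miR-423-3p in the counts of both arms (percent), in 5 fluids, 1 library each, with exact 95% counting intervals. The 5p arm takes 99.0% in plasma and 61.5% to 90.1% in the other fluids, with a wide interval in urine, where both arms together had 26 counts.

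Other miRNAs with both arms listed gave the background for that shift. Of 78 such pairs, 28 had at least 100 counts over both arms in plasma and in serum. The 5p share differed by over 10 percentage points, either way, in 10 of 28 pairs (35.7%), and miR-423 with 18.0 points more 5p in plasma was in this group. Arm shares that differ between these libraries were therefore common. In 13 of the 28 pairs both arms were listed above 0 in both libraries, so that the change of each arm was measured. Among these 13 the log2 ratio of plasma over serum was at least 2 higher for the 5p than for the 3p arm in 3 pairs (23.1%) and at least 2 lower in 2. For miR-423 the difference between the arms was 4.60, the largest towards 5p after miR-148a with 6.38. The choice of miR-423-5p for its plasma share favoured such a place, so it is a description. With arms listed at 0 taken as 10 counts miR-423 ranked 2nd towards 5p of all 28 pairs, and 4th by size in either direction. It ranked 5th of 43 towards 5p at a minimum of 20 counts over both arms, where several differences rest on that assumed count.

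The 5 pairs with the most plasma counts behaved differently from each other. miR-423 had 196439 counts over both arms in plasma and miR-296 had 34789, all of them from its 3p arm. miR-148a, known for its abundance in liver, had 16.8% 5p in plasma against 0.243% in serum, from 19610 and 85744 counts over both arms. miR-22 had 6.77% 5p in plasma and 5.82% in serum, and miR-146a, which is induced in inflammation, was listed by its 5p arm alone in both. Over pairs with both arms above 0, miR-423 again ranked 2nd of 10 towards 5p against semen, with 5.82, where 30.0% of pairs reached a difference of 2. Against bile it ranked 2nd of 12, with 3.51, where 25.0% did, and 3rd of 23 with arms listed at 0 taken as 10 counts. The choice of miR-423-5p for its plasma share favoured these places as well. In urine miR-423 had too few counts to be set among the pairs.

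**Figure D5:**
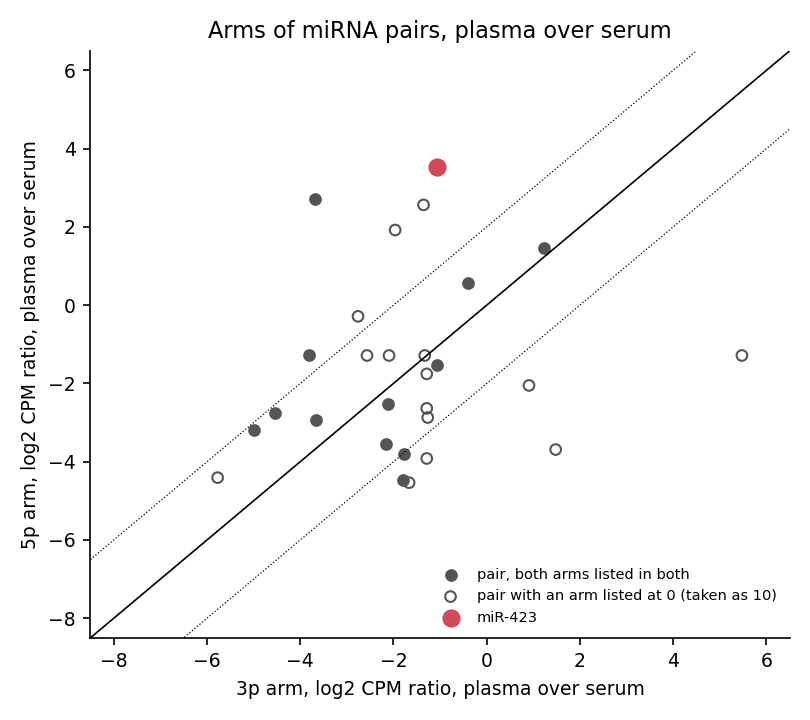
Log2 CPM ratio of plasma over serum for the 5p arm (vertical) and the 3p arm (horizontal) of 28 miRNAs with both arms listed; open points have an arm listed at 0, taken as 10 counts, the solid line marks equal ratios and the dotted lines a 4-fold difference between arms. miR-423 lies at 3.52 for 5p and -1.07 for 3p, above the upper dotted line with 2 other filled points; another scaling moves all points along the diagonal and can turn the sign of the 3p value, but leaves the distance from the line.

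The balance between miR-320 and miR-423-5p also differed between fluids. For each count of miR-423-5p there were 1.52 counts of miR-320 in plasma (1.51 to 1.53), against 0.655 in serum (0.631 to 0.680), 0.302 in semen (0.281 to 0.325), 0.795 in bile (0.737 to 0.856) and 1.50 in urine (0.764 to 3.02). miR-320 was thus the more abundant in plasma, miR-423-5p in serum, semen and bile, and in urine neither was resolved. Against miR-378, which in mammals lies in a gene of energy metabolism and was the most abundant name of plasma, the balance of miR-320 varied less among plasma, serum and semen and was lowest in urine. It was 0.619 in plasma (0.616 to 0.622), 0.671 in serum (0.646 to 0.697) and 0.574 in semen (0.529 to 0.621), with 1.012 in bile (0.935 to 1.10) and 0.0723 in urine (0.0457 to 0.109). So the plasma and serum libraries, which differed 26.7 times in the CPM of miR-320, held it at 0.619 and 0.671 to miR-378. These intervals did not overlap. As miR-320 was picked for its plasma share and miR-378 leads plasma, the nearness of these values is a description. miR-423-5p against miR-378 came to 0.407 in plasma (0.405 to 0.410), 1.02 in serum (0.991 to 1.06), 1.90 in semen (1.79 to 2.01), 1.27 in bile (1.18 to 1.37) and 0.0482 in urine (0.0272 to 0.0794).

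The profiles most like each member were sought among the 166 miRNAs that reached 100 counts in some library, by Pearson's r of log2(CPM + 1) over the 5 fluids. These are 5 points that share each library's depth and scaling, and r is given as a description. miR-320 was most like miR-671-5p (0.99), miR-9820-5p (0.99), miR-423-5p (0.97), miR-378 (0.92) and miR-378b-3p (0.90). The last pair are paralogs by name and reads may have been counted for either, but their sequences were not compared here. miR-423-5p was most like miR-671-5p (0.99), miR-296-3p (0.98), miR-9820-5p (0.97), miR-320 (0.97) and miR-9858-5p (0.92). All of these except miR-9858-5p had their highest CPM in plasma, and 2 of them are sparse elsewhere: miR-671-5p had 1956 counts in plasma and 10 in serum, and miR-9820-5p 12740 in plasma and 10 in serum, with both listed at 0 in the other fluids. miR-423-3p had other neighbours: miR-326 (0.91), the muscle miRNAs miR-133a-3p (0.85) and miR-133b (0.85), miR-9841-3p (0.84) and miR-4334-3p (0.84). These values rest in part on listed zeros. miR-133a-3p, miR-133b and miR-9841-3p were at 0 in semen, urine and bile, and miR-326 and miR-4334-3p in urine and bile. miR-423-3p itself had 1740 counts in semen. The arms of miR-423 had r of 0.71 with each other, below the 0.97 between miR-423-5p and miR-320, which come from different genes. Both miR-320 and miR-423-5p were picked for their large plasma shares, which favours a high r between them. The contrast with the arms is therefore no result.

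miRNAs grouped with the members by other knowledge were not uniformly high in plasma. Of 119 miRNAs, 20.2% were at least 2-fold higher and 73.1% at least 2-fold lower in plasma than in serum by CPM. Among miRNAs that bypass Drosha or Dicer in mouse or human, 4 of 6 names were listed. miR-320 was higher in plasma. miR-451, an erythroid miRNA cut by Argonaute instead of Dicer, was 20.5 times lower by CPM, with 4775 counts in plasma and 40127 in serum. Its log2 ratio was -4.36, beside a median of -2.76 over all 119. miR-484 and miR-1224 were listed at 0 in all 5 libraries. miR-451 remained at least 2-fold lower with TMM, DESeq2 size factors and RPM. The fold was smaller there, since these scalings raise every log2 ratio of plasma over serum by 3.30, 3.35 and 1.84 in that order. miR-320 stayed higher under each, but it was picked for its plasma share, so its direction is no result.

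Among candidate reference miRNAs for human plasma, 7 passed the filter on low counts. By CPM miR-423-5p was at least 2-fold higher in plasma and 6 were at least 2-fold lower, with a median log2 ratio of -4.25 beside -2.76 over all 119. With TMM 2 were higher and 3 lower, where 43.7% and 28.6% of the 119 were, and relative to the median of all miRNAs both miR-423 arms lay above it and the other 5 below. miR-103 had 99 counts in plasma and 3096 in serum, and let-7a 348 in plasma and 8340 in serum. miR-16 had 42 in plasma and 1221 in serum, and miR-191 had 396 in plasma and 3095 in serum. miR-425-5p, with 80 in plasma and 459 in serum, completed the group. miR-423-5p was picked for its plasma share, so its own place above the median is no result.

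Among heart-linked circulating miRNAs, 6 passed the same filter. By CPM 2 were at least 2-fold higher in plasma and 4 lower, where 20.2% and 73.1% of the 119 were. Relative to the median of all miRNAs, 3 of the 6 lay above it. The higher pair was miR-423-5p and the liver miRNA miR-122, with 11836 counts in plasma and 1842 in serum. The muscle and heart miRNAs of this list were lower by CPM, but not all were low beside the other miRNAs. miR-1 had 42 counts in plasma and 313 in serum, with a log2 ratio of -4.18. miR-133a-3p had 135 in plasma and 375 in serum, with -2.76, the median of all 119. miR-133b had 129 in plasma and 223 in serum, with -2.08, above that median. Endothelial miR-126-3p had 221 in plasma and 2103 in serum. These lower calls depended on the scaling. With TMM 3 of the 6 were at least 2-fold higher in plasma and 1 lower, where 43.7% and 28.6% of the 119 were. On the authors' RPM 2 were higher and 2 lower, where 26.1% and 48.7% of the 119 were. The heart miRNA miR-208b was listed at 0 in all 5 libraries, and miR-499-5p had 31 counts in plasma and 41 in serum, under the filter. The plasma level of miR-423-5p within this list was set by the choice of members.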

How the data were processed

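Small RNA of exosomes from 5 fluids was sequenced, 1 library each. Per the labels' protocols, exosomes were isolated with a commercial reagent, RNA was extracted with Trizol, and gel-sized small RNA was ligated, reverse transcribed and amplified. The submitters' processing notes name bcl2fastq 2.17 and the build Sscrofa10.2. Neither the aligner, the miRNA annotation nor the handling of reads matching several names is stated in the sources at hand. The authors deposited raw read counts per mature name, and a normalized column that fits RPM (reads scaled to 1000000 of a library total that exceeds the miRNA sum). Every count was 0 or at least 10.

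CPM were computed on the summed miRNA counts. A count listed at 0 was taken as 10 in ratios. Shares carry exact Clopper-Pearson intervals, CPM ratios exact conditional binomial intervals, and the ratio of arm ratios a Woolf interval on the log scale (scipy 1.17.1); all are 95% intervals. Ratio intervals were tested on simulated data. edgeR 4.0.16 and DESeq2 1.42.0 gave scaling factors alone. Members and lists were chosen with earlier results of these data known. Named miRNAs were the members, their rank neighbours, the 5 leading plasma names, the 5 most like each member, list members and the 5 leading arm pairs; other names were chosen after their values were seen. A planned description of mature sequences was not made. Names outside the 411 were not analysed here.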

Additional observations from a re-analysis of the deposited data

How the results depend on the processing

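With 1 library per fluid there is no measure of variation between animals, collections or preparations and the urine values rest on 10 to 24 counts per member. No paired analysis was possible because each fluid has 1 library. The log2 ratio of plasma over serum kept its direction for miR-320 and miR-423-5p under every scaling but changed in size. For miR-320 it was 4.74 by CPM, 8.04 with TMM, 8.09 with DESeq2 size factors, 5.22 with totals without the most abundant miRNA, 6.58 on the authors' RPM and 5.50 with totals without the 3 members. For miR-423-5p it was 3.52 by CPM, 6.83 with TMM, 6.87 with DESeq2 size factors, 4.01 without the most abundant miRNA, 5.36 on RPM and 4.28 without the 3 members. Added after the data were seen were totals without the 5 most abundant plasma miRNAs (7.80 for miR-320 and 6.59 for miR-423-5p) and values relative to the median miRNA (7.50 and 6.28 in the same order). For miR-423-3p it was -1.07 by CPM, -0.59 without the most abundant miRNA, -0.31 without the 3 members and -0.84 after thinning every library to 26522 counts. It was above 0 with TMM (2.23), DESeq2 size factors (2.28), RPM (0.77), without the 5 most abundant plasma miRNAs (1.99) and relative to the median (1.69). These scalings differ by construction in how far the leading plasma miRNAs enter the total. The 18 miRNAs at least 4-fold higher in plasma became 35 with TMM, 37 with DESeq2 size factors and 33 without the 5 most abundant plasma miRNAs. Thinning leaves few counts: the 5p share of miR-423 came to 98.9% in plasma and 62.2% in semen, and the ratio of miR-320 to miR-423-5p to 0.196 in semen and 1.0 in bile. A floor of 3 counts left every ratio of the members as it was, since all were listed at 10 or more. Of the 5 names most like each member, 5, 4 and 1 were shared without the urine library for miR-320, miR-423-5p and miR-423-3p, and 3, 2 and 3 with a pseudocount of 10 CPM; by Spearman's rho they were 4, 1 and 1.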
